A study of Mus musculus with 6 samples.

Results

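Matrix metalloproteases, ADAM and ADAMTS metalloproteases, their tissue inhibitors and the plasminogen activators with the urokinase receptor, 34 genes in all, were followed in mouse esophagus with and without a conditional deletion of Pax9. The members were taken by their gene name in the scanner files, and 53 of the 41174 probes of the array, which stand for 28104 gene names, carried one of these 34. RNA labelled as esophageal epithelium of adult C57BL/6J mice was measured on 6 two-colour arrays, 3 labelled wild type (WT-labelled) and 3 labelled knockout (KO-labelled), the latter from mice with a K5Cre driver and both Pax9 alleles floxed (K5Cre;Pax9 loxp/loxp). In the second genotype a keratin 5 promoter drives Cre, so recombination is expected in keratin 5 cells and their descendants and not in muscle, stroma or immune cells. The labels call the arrays of a group biological replicates and say nothing more on the animals, and p-values cover only the spread among these samples. Esophagus RNA was in Cy5 on every array, against a pool of RNA from 11 mouse cell lines in Cy3, with no dye swap.

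Matrix metalloproteases are zinc enzymes that cut collagens, laminins, proteoglycans and other proteins outside the cell, and most are made as inactive precursors. Tissue inhibitors of metalloproteases (TIMPs) block their active site. ADAMs sit in the membrane and release growth factors and receptors from the cell surface, while ADAMTS enzymes are secreted and cut proteoglycans and procollagens. Urokinase and tissue plasminogen activator turn plasminogen into plasmin, a broad protease that also activates several matrix metalloproteases. In stratified epithelia such as the lining of the esophagus these enzymes are known for their work in basement membrane turnover, wound closure and the release of ligands of the epidermal growth factor receptor.

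All values are log2 ratios of esophagus over reference, and a difference is the mean of the KO-labelled arrays minus that of the WT-labelled arrays. The Pax9 probe gave no lower ratio in the knockout group. It read 6.04 ± 0.30 (SD, n = 3) against 6.77 ± 0.05 (SD, n = 3), a difference of 0.73 (adjusted p = 0.071 in limma). Whether the probe lies in the floxed part was not checked here, so groups are called by their labels and every direction rests on them. The WT-labelled arrays shared a slide and a scan and the KO-labelled arrays another slide and scan, so slide and group cannot be told apart. The reference RNA was common to all arrays, yet in Cy3 alone 11270 of 20818 genes (54.1%) differed between the groups at an adjusted p under 0.05, and with them 14 of the 30 members tested. Cy3 differences are therefore given beside most of the results they touch. Those of Mmp2 (0.19), Timp2 (0.20), Adam9 (0.18) and Adamts1 (0.19) are given only here. So are those of Adamts4 (-0.23) and Plat (-0.20), each of them at an adjusted p under 0.05 in limma.

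The members' probes are 60 bases long. The first 30 bases of the probes for the 2 members past the threshold, and for Mmp10, are shown because the results below rest on these 4 probes. The 2 probes of Mmp24 also disagree in the size of the difference.
Timp4, probe A_51_P355427: ccagcaaatggaggctgtggggcatgtgac
Mmp24, probe A_51_P450376: acttctgtctgggcagacctctctctactc
Mmp24, probe A_52_P605500: cctgtaggctctgagagaggctgagggtag
Mmp10, probe A_51_P120830: acaaccctgtaaaatgagtctcatgacttc
On mouse build mm9, as the scanner files give it, the Timp4 probe lies on chromosome 6 from 115196120 to 115196179, minus strand. The Mmp24 probes lie on chromosome 2, plus strand, the first from 155642001 to 155642064 and the second from 155643521 to 155643580. The Mmp10 probe lies on chromosome 9 from 7510011 to 7510070, plus strand.

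Of the 34 members, 30 had a probe that could be tested, meaning that every array of 1 group or both had Cy5 well above background. The probes of Mmp8 (a neutrophil collagenase), Mmp12 (macrophage elastase) and Adam12 (an ADAM with roles in muscle and mesenchyme) were not well above background on any of the 6 arrays. Mmp13, a collagenase, was above background on 4 of 6 arrays, 2 of each group, with Cy5 signals of 12.2 to 39.3 on the WT-labelled arrays and 12.8 to 33.9 on the KO-labelled ones, against Cy3 signals of 588 to 1407. Of the 30 tested, 17 were below the reference on all 6 arrays and 5 were above it on all 6: Mmp15, Mmp17, Mmp24, Adam10 and Adam17. A ratio compares 1 gene with the reference and does not rank genes by level.

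Timp4 and Mmp24 were the 2 members that passed the threshold of an adjusted p under 0.05 in limma, both higher on the KO-labelled arrays, and no member passed it in the lower direction. That is 6.67% of 30 members, against 4.84% of all 20818 genes tested (2.83% higher and 2.00% lower). With these 2, 10 of 30 members (33.3%) had an unadjusted p under 0.05, against 5152 of all 20818 genes (24.7%). The groups did not overlap for 10 of 30 members, 5 higher and 5 lower, against 32.2% of all genes. The median difference was -0.11 over the members and 0.01 over all genes. In Cy5 alone 10 of the 30 members passed, 4 higher and 6 lower, against 28.8% of all genes.

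**Figure D1:**
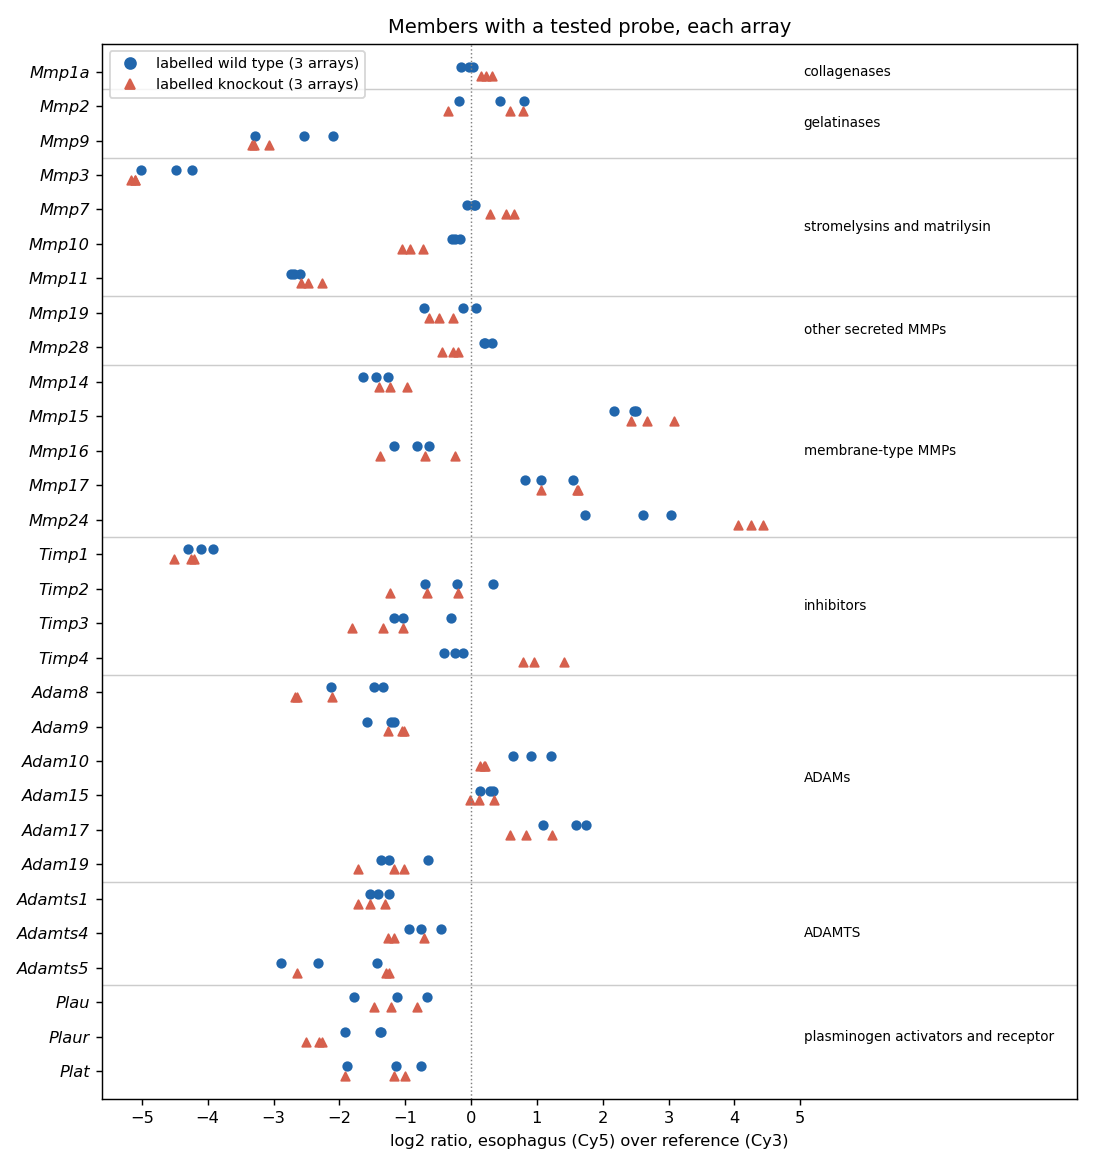
Log2 ratio of esophagus (Cy5) over reference (Cy3) for the 30 members with a tested probe, 1 point per array, circles for WT-labelled and triangles for KO-labelled arrays, in role groups. Timp4 and Mmp24 are the members past the threshold, with all 3 triangles to the right of all 3 circles; Mmp3 and Timp1 lie farthest below the reference.

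Among the inhibitors, Timp4 rose and the other 3 did not pass the test. Timp4, an inhibitor known best from heart and muscle, read -0.13, -0.24 and -0.42 on the WT-labelled arrays and 0.78, 1.41 and 0.96 on the KO-labelled ones. The groups were well apart. The difference was 1.31 (SE 0.20, adjusted p = 0.023). Background-subtracted Cy5 signals, which are not scaled between arrays, were 25.9, 34.5 and 49.6 against 263.5, 522.6 and 364.8. The Cy3 signal of the same spots was also higher on the second slide, 146.0 to 167.5 against 347.9 to 362.5. In Cy3 alone the difference was 1.09 (adjusted p = 2.6e-05), and in Cy5 alone it was 1.83 (adjusted p = 0.003). With median centring in place of loess it was 0.77 (adjusted p = 0.19), and with the deposited scanner ratio 1.32 (adjusted p = 0.06). The call was lost without wild type replicate 1 (adjusted p = 0.082), wild type replicate 2 (0.076) or knockout replicate 3 (0.11).

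Timp3, an inhibitor bound to the extracellular matrix, read -1.17, -1.03 and -0.30 against -1.04, -1.81 and -1.34. The groups overlapped and the difference was -0.56 (SE 0.29, adjusted p = 0.30). In Cy5 alone it was -1.002 (adjusted p = 0.033), with -0.34 in Cy3 alone. Timp2, which also takes part in the activation of Mmp2, differed by -0.51 (adjusted p = 0.41). Timp1, a secreted inhibitor, differed by -0.22 (adjusted p = 0.46) and lay far below the reference, at -4.11 ± 0.19 and -4.33 ± 0.16 (SD, n = 3 each).

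All 5 membrane-type metalloproteases, which act at the cell surface, had a positive difference in the ratio, though Mmp15 turned in the deposited ratios and Mmp17 in Cy5 alone and as a mean over probes. Mmp16 turned to -0.05 without WT-labelled replicate 2 and to -0.17 without KO-labelled replicate 3. Of the 5, 1 passed the test, Mmp24. Mmp24 read 2.62, 1.72 and 3.03 on the WT-labelled arrays and 4.43, 4.26 and 4.06 on the KO-labelled ones. Every KO-labelled array lay above every WT-labelled array, though the WT-labelled arrays were the more spread (SD 0.67 against 0.18, n = 3 each). The difference was 1.79 (SE 0.33, adjusted p = 0.034), a 3.46-fold higher ratio. Cy5 signals were 247, 153 and 819 against 1170, 1618 and 1116, and the Cy3 difference was -0.07. The 2 probes of Mmp24 shared a sign but not the size of the difference. The second, dimmer probe differed by 0.16 (adjusted p = 0.52), with Cy5 signals of 9.6 to 23.9 against 18.8 to 35.1, and was well above background on 1 WT-labelled and 3 KO-labelled arrays. It read -0.10, -0.06 and -0.21 against -0.05, -0.02 and 0.19, so its groups were apart by a narrow margin. Its Cy5 signals lay under the added offset of 50, which shrinks differences of dim probes. The mean over both probes differed by 0.98 (adjusted p = 0.029). The call was lost with the deposited scanner ratio (1.74, adjusted p = 0.056) and with median centring (1.58, adjusted p = 0.087). It was also lost without wild type replicate 1 (0.11) or 2 (0.053) and without knockout replicate 1 (0.10), 2 (0.07) or 3 (0.13), and held without wild type replicate 3 (0.03).

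Mmp15 read 2.51, 2.48 and 2.17 against 2.67, 3.09 and 2.43, a difference of 0.34 (SE 0.21, adjusted p = 0.36) with overlapping groups. The sign of Mmp15 turned to -0.18 in the deposited scanner ratio. Mmp17, anchored by a lipid tail, differed by 0.28 in the ratio and by -0.42 in Cy5 alone, with -0.79 in Cy3 alone. Its second tested probe read -0.44. Mmp14, the main activator of Mmp2 at the cell surface, differed by 0.25 (adjusted p = 0.44), and its second probe by -0.23. Mmp16 differed by 0.10 (adjusted p = 0.87).

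**Figure D2:**
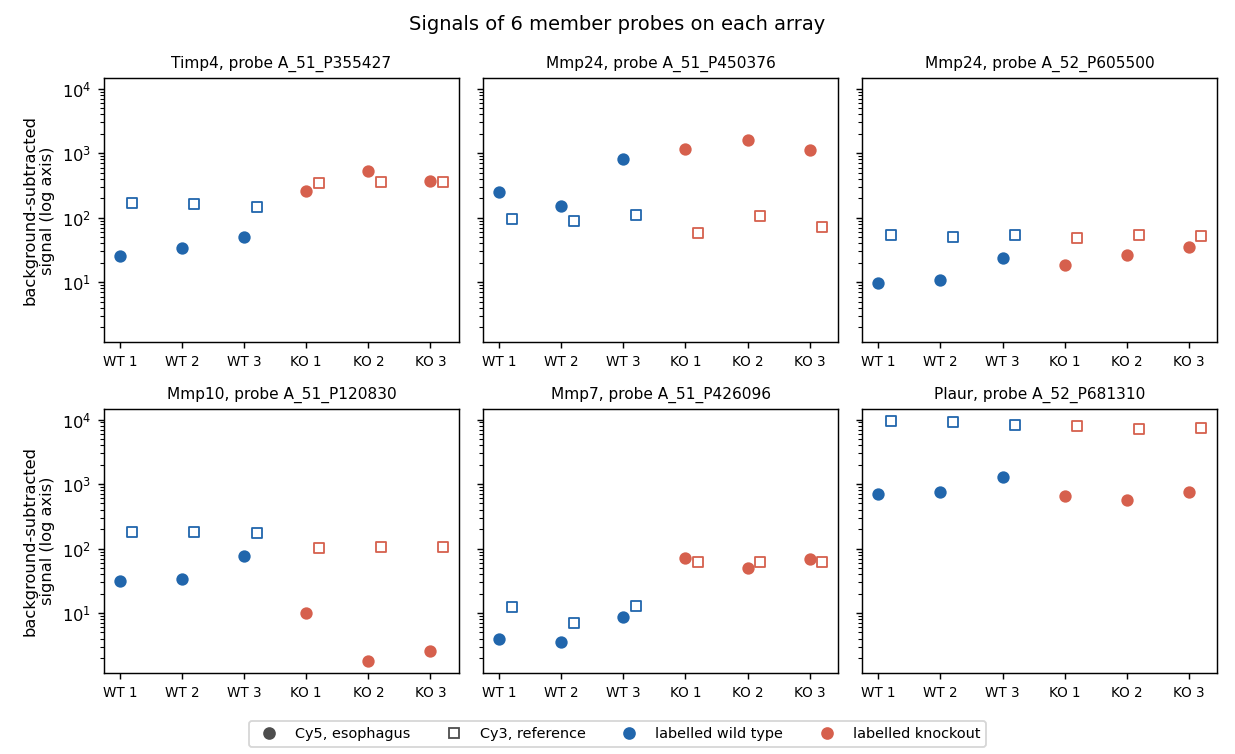
Background-subtracted signal on a log axis for 6 probes of 5 members on each array, filled circles for Cy5 (esophagus) and open squares for Cy3 (reference), blue for WT-labelled and red for KO-labelled arrays. For Timp4 and Mmp7 both channels are higher on the second slide, for Mmp10 both are lower, and for the first Mmp24 probe and Plaur the Cy3 squares lie at similar heights.

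Skeletal muscle markers were set beside these 2 members. Of 6 such markers 1 passed the test, Myh2, a fast myosin heavy chain, with a difference of 1.63 (adjusted p = 0.04). The other 5 had differences of -0.03 to 1.77 with overlapping groups, and the median over the 6 was 1.22. Their summed Cy5 signal ran from 18227 to 199475 on the WT-labelled arrays and from 106046 to 1161408 on the KO-labelled ones. WT-labelled replicate 2 had 199475, above 2 of the 3 KO-labelled arrays. On that array Timp4 had a Cy5 signal of 34.5 and Mmp24 one of 153.1, both within or below the range of the other WT-labelled arrays. Myh2 did not follow the sum. Its Cy5 signals were 164, 158.5 and 696.9 against 1060.4, 915.6 and 1230.4, lowest on replicate 2 in both groups, whereas each of the other skeletal muscle markers had its highest WT-labelled signal on replicate 2. No skeletal muscle marker was at 0. The part of muscle RNA in the differences of Timp4 and Mmp24 was not tested. In whole tissue RNA more cells of a type and more RNA per cell cannot be told apart.

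Of the secreted collagenases, stromelysins and matrilysin, none passed the test, and those of chromosome 9 differed in both directions. Mmp10, a stromelysin made by epithelial cells at wound edges, read -0.18, -0.25 and -0.29 against -0.74, -1.05 and -0.93. The groups did not overlap, and the difference of -0.67 (SE 0.15) missed the threshold narrowly (adjusted p = 0.054). Its probe was not well above background on any KO-labelled array, with Cy5 signals of 10, 1.8 and 2.6 against 31.6, 34.2 and 75.5 on the WT-labelled arrays. In Cy5 set to a common scale the KO-labelled arrays were 1.91-fold lower, and in Cy5 alone the log2 difference was -0.70. The fold sets the bright group's mean against the dimmest signal that still counted as above background, or the probe's own where that was higher. Here the probe's own signal was used, so the fold is no lower bound, and it is open to dye bias. Cy3 alone differed by -0.42 (adjusted p = 0.00082). Mmp10 was past the threshold under 9 of the 18 other settings that could test it, with -2.89 (adjusted p = 0.048) in the deposited scanner ratio, and stayed short of it with median centring (-0.43, adjusted p = 0.30). Over those settings its adjusted p ran from 0.014 to 0.30.

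Mmp7, matrilysin, read 0.06, -0.06 and 0.04 against 0.65, 0.29 and 0.53, a difference of 0.48 (SE 0.15, adjusted p = 0.12). Its probe was not well above background on the WT-labelled arrays. By the fold used for Mmp10, again with the probe's own signal, Cy5 was 2.18-fold higher on the KO-labelled ones. The Cy3 signal of this probe differed by a like amount, 0.91 in Cy3 alone beside 0.83 in Cy5 alone, and with median centring the ratio turned to -0.27. Mmp1a, an interstitial collagenase, had the same pattern. It read -0.15, -0.03 and 0.02 against 0.32, 0.16 and 0.22, a difference of 0.28 (SE 0.14, adjusted p = 0.27), with 0.53 in Cy5 alone, 0.58 in Cy3 alone and -0.29 with median centring. Its Cy5 signal was not well above background on the WT-labelled arrays and by the same fold was 1.56-fold higher on the others. A second Mmp1a probe, well above background on 2 arrays of each group and so not tested, read 0.04 ± 0.14 against -0.09 ± 0.09 (SD, n = 3 each), with overlapping groups. Without the filter on dim probes that probe stood for the gene, and the difference was -0.12.

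Mmp3, a stromelysin of stromal cells, was the member farthest below the reference, at -4.58 ± 0.40 and -5.13 ± 0.04 (SD, n = 3 each). Its difference was -0.55 (adjusted p = 0.19), but 0.02 in Cy5 alone and 0.31 in Cy3 alone. Mmp11, a stromelysin on chromosome 10, differed by 0.24 (adjusted p = 0.37) with groups that did not overlap. Of the gelatinases, which cut denatured collagen and basement membrane collagen, Mmp9 read -2.10, -2.54 and -3.29 against -3.08, -3.3 and -3.33, a difference of -0.59 (SE 0.30, adjusted p = 0.28), and its second probe differed by -0.09. Mmp2 read 0.45, -0.18 and 0.80 against 0.79, -0.35 and 0.59, a difference of -0.01 (SE 0.36, adjusted p = 0.99). The gelatinase groups overlapped.

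The other secreted enzymes gave a like picture. Mmp28, an enzyme of keratinocytes, read 0.19, 0.20 and 0.31 against -0.44, -0.19 and -0.27, a difference of -0.54 (SE 0.14, adjusted p = 0.078) with groups that did not overlap. Its second probe, not well above background on the WT-labelled arrays, differed by 0.20, and Cy3 alone by -0.42. Mmp19 read 0.07, -0.72 and -0.13 against -0.27, -0.65 and -0.49, a difference of -0.21 (SE 0.23, adjusted p = 0.63). Its groups overlapped.

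Of the 7 ADAMs, 6 were tested and none passed. In the ratio 5 had a negative difference, of which Adam15 turned in the deposited ratios and with median centring, and Adam19 with array weights, as a mean over probes and without WT-labelled replicate 3 (0.0073). Adam10, the sheddase of Notch receptors, read 1.21, 0.91 and 0.64 against 0.19, 0.20 and 0.14. All KO-labelled arrays lay below all WT-labelled ones, and the difference was -0.74 (SE 0.18, adjusted p = 0.066). Cy3 alone differed by -0.08 and Cy5 alone by -0.72 (adjusted p = 0.03). Without wild type replicate 3 the difference of Adam10 was -0.88 and passed (adjusted p = 0.048). Adam8, an ADAM of leukocytes, read -1.33, -1.47 and -2.12 against -2.67, -2.11 and -2.65, the largest negative difference of the 30 members at -0.83 (SE 0.26, adjusted p = 0.12). Its groups overlapped slightly. Adam17, which releases tumour necrosis factor and ligands of the epidermal growth factor receptor, differed by -0.59 (adjusted p = 0.19), and its second probe by -0.35.

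The remaining ADAMs differed by less. Adam9 differed by 0.22, and -0.02 in the deposited scanner ratio. Adam15 differed by -0.10 in the ratio and by -0.55 in Cy5 alone, beside -0.37 in Cy3 alone, with 0.02 in the deposited scanner ratio and 0.19 with median centring. Adam19 had 3 tested probes that disagreed in sign. Its brightest probe differed by -0.21 (adjusted p = 0.67), another by 0.24, and the third by 0.63 (adjusted p = 0.067). On the third probe both channels were higher on the second slide, by 1.11 in Cy5 alone and 1.18 in Cy3 alone. Markers of leukocytes were set beside Adam8. Macrophage markers passed the test in 0 of 5, with summed Cy5 of 2378 to 13067 against 3673 to 6679, and neutrophil markers in 0 of 3 tested of 7, with 676 to 1391 against 606 to 824. Most of that sum was Cxcr2, a chemokine receptor of neutrophils, with Cy5 signals of 1285, 608 and 1102 against 371, 457 and 541. The groups of Cxcr2 did not overlap, and its difference was -1.23 (SE 0.35, adjusted p = 0.093), with -1.41 in Cy5 alone (adjusted p = 0.041) and -0.36 in Cy3 alone. Mpo and Ltf, the other neutrophil markers tested, went the other way, by 0.43 (adjusted p = 0.28) and 0.10 (adjusted p = 0.74), with overlapping groups. Ngp, Camp, Elane and Csf3r were not well above background on all arrays of either group. The part of leukocytes in the Adam8 difference was not tested.

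None of the 3 ADAMTS enzymes passed. Adamts4, an aggrecanase, read -0.77, -0.95 and -0.45 against -0.72, -1.26 and -1.17, a difference of -0.33 (SE 0.21, adjusted p = 0.38). Adamts5, the other main aggrecanase, read -2.33, -2.88 and -1.43 against -1.29, -2.65 and -1.25, a difference of 0.49 (SE 0.49, adjusted p = 0.58). The arrays of 1 group spanned more than the difference between groups in Adamts5. Adamts1, which cuts versican, differed by -0.12 (adjusted p = 0.70), and by 0.12 in Cy5 alone and 0.21 with median centring.

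Of the plasminogen activators and their receptor, none passed, and the receptor had the smallest p. Plaur, the urokinase receptor, read -1.37, -1.39 and -1.92 against -2.32, -2.51 and -2.27. The groups did not overlap, and the difference was -0.80 (SE 0.19, adjusted p = 0.065). Its second probe gave nearly the same difference, -0.78 (adjusted p = 0.066), and Cy3 alone differed by -0.04. Without wild type replicate 3 the difference of Plaur was -0.98 and passed (adjusted p = 0.038), and in the deposited scanner ratio it was -0.54 (adjusted p = 0.33). Plat, tissue plasminogen activator, read -1.15, -1.89 and -0.76 against -1.16, -1.92 and -1.01, a difference of -0.10 (SE 0.35, adjusted p = 0.89), with 0.32 from its second tested probe. Plau, urokinase, differed by 0.02 (SE 0.30, adjusted p = 0.97) and by -0.17 in its second probe.

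**Figure D3:**
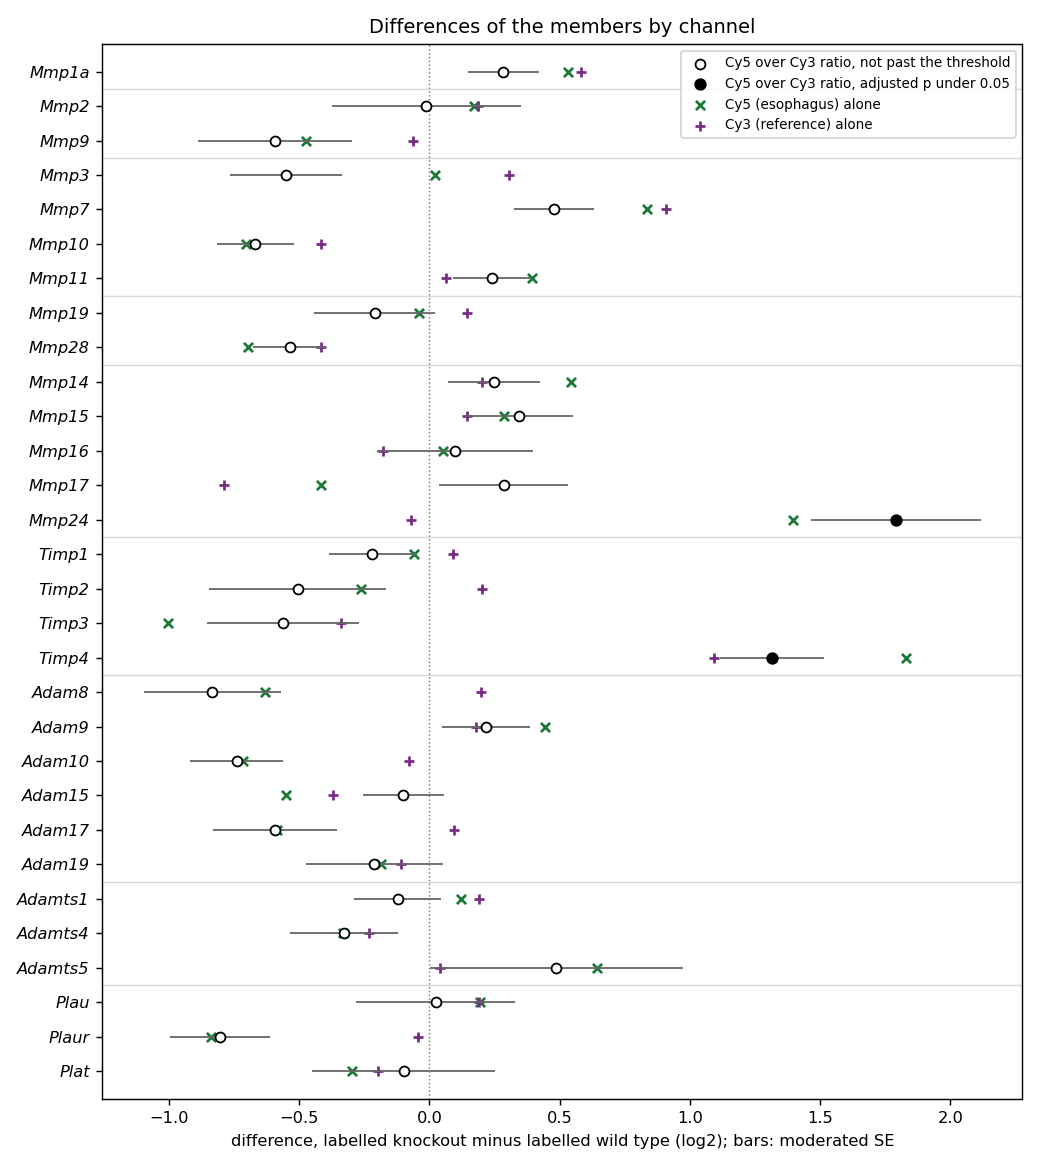
Difference of the KO-labelled minus the WT-labelled arrays for the 30 members (log2), circles for the ratio with bars of 1 moderated SE, crosses for Cy5 alone and plus signs for Cy3 alone. For Timp4, Mmp7, Mmp1a and Mmp17 the Cy3 value lies far from 0 in the direction of the Cy5 value, whereas for Mmp24, Adam10 and Plaur it lies within 0.1 of 0.

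Probes of 1 gene did not always share a sign. Of 14 members with more than 1 tested probe, 8 had probes of the same sign and 6 did not: Adam19, Mmp14, Mmp17, Mmp28, Plat and Plau. Plaur was the member with 2 probes that both had groups apart and like differences.

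Several members shared a low replicate 2. Mmp2, Mmp7, Mmp19, Mmp16, Timp2, Adam19, Adamts4, Adamts5 and Plat, 9 of 30 (30%), were lowest on replicate 2 in both groups, against 18.3% of all genes. Of these 9, Mmp7 had groups that did not overlap. All 6 fibroblast markers were lowest there as well, with mean ratios of 0.09, -0.81 and 0.73 on the WT-labelled arrays and 0.64, -0.84 and 0.86 on the KO-labelled ones. Of 6 skeletal muscle markers 4 were highest on replicate 2 in both groups. Replicates 1, 2 and 3 lay at positions 2, 3 and 4 of each slide, so sample and position cannot be told apart. The part of stroma in these members' spread was not tested. Leaving replicate 2 out of both groups, a choice made after the data were seen, left 0 members past the threshold, 324 genes in all, and differences of 1.14 for Timp4 (adjusted p = 0.069) and 1.42 for Mmp24 (adjusted p = 0.062).

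**Figure D4:**
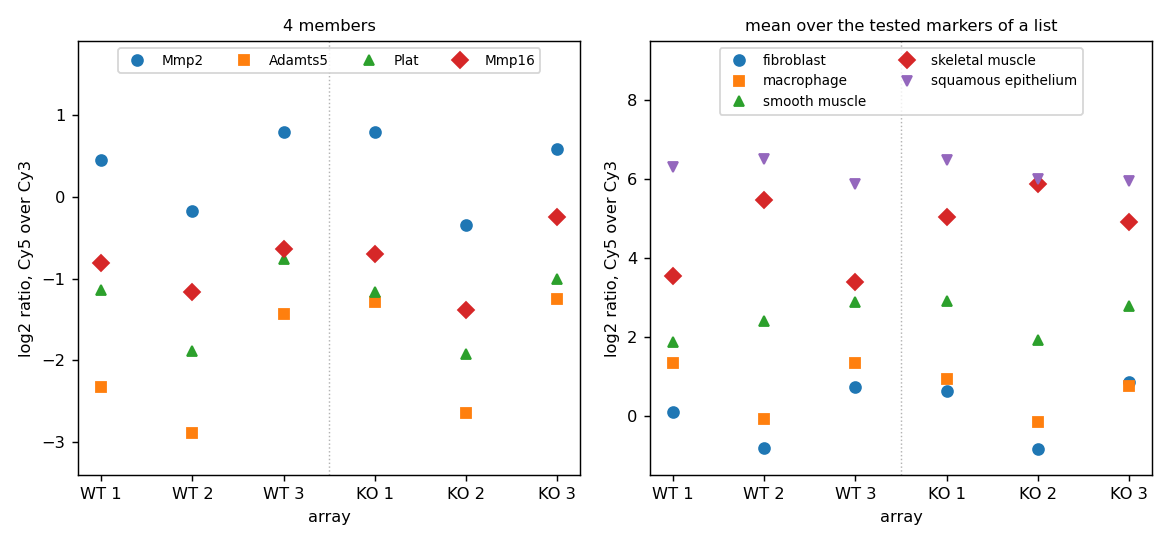
Log2 ratio of esophagus over reference on each array (WT and KO by label) for Mmp2, Adamts5, Plat and Mmp16 on the left, and the mean over the tested markers of 5 cell type lists on the right. The 4 members and the fibroblast and macrophage means are lowest on replicate 2 of both groups, and the skeletal muscle mean is highest there.

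Squamous epithelium markers were bright on all arrays, with mean ratios of 5.88 to 6.51 and no marker of 6 past the test in the ratio. Krt14 differed by 0.34 in the ratio, but by -1.44 in Cy5 alone and -1.52 in Cy3 alone. Trp63 differed by 0.28 in the ratio and by 0.38 in Cy3 alone. Fibroblast, endothelial, mast cell and smooth muscle markers were also present, with 0 of 6, 0 of 5, 0 of 4 and 0 of 5 past the test, so the RNA was not of epithelium alone.

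Genes that work with the members were taken from 4 lists of 86 genes, of which 73 were tested. Of these 73, 3 rose and none fell (4.11%, against 4.84% of all genes tested): Adam33, Lamb3 and Eln. With the replicate number as a block 6 passed, 4 higher and 2 lower, the added ones being Spock2, Rhbdf2 and Tspan33, and all genes past the threshold went from 1007 to 1707. Among 23 other metalloproteases 1 rose. Adam33, a membrane ADAM of mesenchymal cells, read 0.59, 0.75 and 1.10 against 3.69, 2.48 and 3.14, a difference of 2.29 (SE 0.31, adjusted p = 0.018). Its groups were far apart, but the difference was 1.38 in the deposited scanner ratio (adjusted p = 0.053), 1.45 with median centring (0.067) and 1.27 as a mean over its probes (0.034). In Cy3 alone it was 0.59. Leaving out WT-labelled replicate 1 (0.08), WT-labelled replicate 2 (0.066) or KO-labelled replicate 3 (0.096) ended the call.

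Among 18 matrix substrates 2 rose. Lamb3, the beta chain of laminin 332 in the epithelial basement membrane, read 2.04, 2.45 and 2.03 against 3.19, 3.03 and 3.06, a difference of 0.92 (SE 0.17, adjusted p = 0.034). The call was lost when any 1 of the 6 arrays was left out, with adjusted p from 0.058 to 0.15. Eln, elastin, read 1.37, 1.39 and 1.74 against 2.86, 2.20 and 2.85, a difference of 1.14 (SE 0.23, adjusted p = 0.043), and held without knockout replicate 2 (0.027) but not without any other single array (0.052 to 0.17). None of the 3 passed in the deposited scanner ratio.

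Of 13 plasmin system genes and 19 regulators of metalloprotease activity and shedding none passed. The smallest p of the former was that of Serpinf2, the plasmin inhibitor alpha-2-antiplasmin, at -0.52 (SE 0.13, adjusted p = 0.078), with -0.98 in both channels alone. Serpinf2 read 0.65, 0.71 and 0.66 against 0.24, 0.04 and 0.18, and its groups did not overlap. The smallest of the latter was that of Rhbdf2, a rhomboid-like protein that controls the maturation of Adam17, at -0.97 (SE 0.21, adjusted p = 0.051), with 0.21 in Cy3 alone. Rhbdf2 read 2.19, 2.15 and 1.59 against 0.92, 1.22 and 0.87, with groups that did not overlap.

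Promoters were examined for the 7 members that lie near each other on chromosome 9, Mmp13, Mmp12, Mmp3, Mmp1a, Mmp10, Mmp8 and Mmp7. RefSeq windows from 250 bases before to 50 bases after an annotated start (build GRCm38.p6) were found for 23 of the 34 members, 27 windows in all. The letters TGANTCA, the AP-1 element, were searched on both strands and stood in 8 of these 27 windows, against 7.81% of 32851 windows of the same length. They were found for 6 of the 7 chromosome 9 genes, the exception being Mmp8, and for Plaur and Adam19. The letters TATAAA on either strand were found for all 7, against 13.6% of all windows, and GGGCGG for none of the 7, against 35.7%. A match is a description of letters and not a site in use. The windows of Mmp3 and Mmp10, which hold both motifs, are shown beside those of Timp4 and Mmp24, with neither, in the gene's direction and with TGANTCA and TATAAA in capitals.
Mmp3, chr9:7445572-7445871, plus strand: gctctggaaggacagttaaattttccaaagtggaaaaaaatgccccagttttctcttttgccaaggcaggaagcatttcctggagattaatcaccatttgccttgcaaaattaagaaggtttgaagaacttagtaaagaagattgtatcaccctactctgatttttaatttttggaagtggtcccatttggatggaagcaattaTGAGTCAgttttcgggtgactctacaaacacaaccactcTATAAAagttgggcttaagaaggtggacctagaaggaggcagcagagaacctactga
Mmp10, chr9:7502092-7502391, plus strand: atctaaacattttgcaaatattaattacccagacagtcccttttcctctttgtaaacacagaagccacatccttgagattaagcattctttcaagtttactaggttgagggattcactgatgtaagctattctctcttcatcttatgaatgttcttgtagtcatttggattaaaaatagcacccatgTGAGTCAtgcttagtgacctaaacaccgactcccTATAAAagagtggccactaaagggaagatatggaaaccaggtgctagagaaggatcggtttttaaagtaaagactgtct
Timp4, chr6:115252156-115252455, minus strand: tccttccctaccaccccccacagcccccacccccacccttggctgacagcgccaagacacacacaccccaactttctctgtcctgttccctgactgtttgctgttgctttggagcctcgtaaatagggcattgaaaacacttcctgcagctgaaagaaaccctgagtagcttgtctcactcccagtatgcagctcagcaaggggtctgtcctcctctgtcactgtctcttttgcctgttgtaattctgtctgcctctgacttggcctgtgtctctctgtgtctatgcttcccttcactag
Mmp24, chr2:155775092-155775391, plus strand: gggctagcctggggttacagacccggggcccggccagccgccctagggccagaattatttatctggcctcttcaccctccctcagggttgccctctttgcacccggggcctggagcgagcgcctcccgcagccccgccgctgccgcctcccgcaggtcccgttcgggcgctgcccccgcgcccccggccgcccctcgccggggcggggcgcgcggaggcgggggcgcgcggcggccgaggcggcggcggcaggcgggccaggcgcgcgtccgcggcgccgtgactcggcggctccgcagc
The AP-1 letters began 46 bases before the annotated start in Mmp3 and 63 in Mmp10. None of the 6 tested members with AP-1 letters passed the threshold, against 4.84% of all genes tested. Neither of the 2 members past the threshold had a window with either motif, and most windows of all genes lack each motif as well. With so few genes these counts cannot link a motif to a difference.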

How the data were processed

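The authors deposited 1 scanner file per array, with linear intensity values and a log10 ratio made by Agilent Feature Extraction (version 10.7.3.1 per the file headers, 9.1 per the submitters' processing notes), and a matrix of log2 values. The deposited matrix columns correlated at -0.9962 to -0.9935 with the scanner ratios, so they run reference over sample and were turned in sign, with their centring unstated.

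From the intensities, background was corrected with normexp (offset 50) and each array normalized by loess, with outlier spots (55 to 164 per array) set to missing. No member spot was saturated. The offset shrinks differences of dim probes. Loess removes an intensity trend within an array, and differences such as those of Timp4 and Mmp10 were larger with it than with median centring. Group differences came from limma 3.58.1 under R 4.3.3, by lmFit and eBayes with no covariate and two-sided p-values, with Benjamini-Hochberg adjustment over 30501 probes and a threshold of 0.05. A gene was represented by its brightest tested probe. Names came from RefSeq tables by accession for 26918 probes, by symbol or synonym for 5899, and from the files for 8357. Between 67.3% and 77.3% of probes per array had Cy5 well above background. The number of arrays limits the precision, and an exact permutation test of 3 against 3 cannot go below p = 0.1. The fit was tested on simulated data with independent noise on each array. The simulation held no shared slide or replicate effect, so it says nothing on those.

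The members and lists were chosen with earlier results of these data known. Each array's values are given for members past the threshold and for the 2 members of smallest p in each role group, and from the lists for all genes past the threshold or else the one of smallest p. Deviations of arrays with the same replicate number correlated at 0.14, 0.49 and 0.32 over genes, all above the 0.1 taken to mark pairing. Pairs with different numbers ran from -0.47 to 0.16, so replicate 1 at 0.14 was not told apart from them. The labels do not say what a number stands for. Alternatives covered background correction, deposited ratios, centring, Cy5 alone, filters, the variance model, a replicate block, probe averaging and leaving arrays out.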

Additional observations from a re-analysis of the deposited data

How the results depend on the processing

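Timp4 and Mmp24 kept a positive difference in all 19 other settings run, from 0.77 to 1.83 and from 0.98 to 2.08, and passed the threshold in 12 and 10 of them. The count of members past it, 2, became 1 with the deposited scanner ratio and with the matrix values (Mmp10 in both), 0 with median centring, 10 with Cy5 alone, 8 with array weights, 0 without replicate 2 in both groups, and 0 to 4 when single arrays were left out. With the replicate block it was 2, the same genes, and the block changed no member's call. The count over all genes, 1007, became 571, 561, 120, 5994, 2875 and 324 in the same settings, 1707 with the replicate block, 558 where all 6 arrays had to be above background, and 34 to 826 without single arrays, lowest without knockout replicate 3 (34) and wild type replicate 1 (87). The list genes, 3, became 0, 0, 0, 19, 14 and 1 in the same settings, 5 with an offset of 16, 7 without background correction, 5 without a filter, 1 with an intensity trend, 6 with the replicate block, 6 with probe means, and 0 to 5 without single arrays. Median centring moved the median difference of all genes from 0.01 to 0.11 and that of the members from -0.11 to 0.04. No past-threshold difference turned in sign in a setting run; differences short of it did in 40 cases. The causes were not tested. Of the members, 3 were dim in 1 whole group and 4 were not tested, and for these signal over background is the limit.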
